A study of Sus scrofa with 4 samples.

Results

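IGF receptors and IGF-binding proteins were followed in cells sorted from the epidermis of pigs that carry a reporter of the stem cell receptor gene LGR5. The 9 genes were taken by name: the receptors IGF1R, IGF2R and INSR, and the binding protein genes IGFBP2, IGFBP3, IGFBP4, IGFBP5, IGFBP6 and IGFBP7. They were 9 of 29837 named genes in the count table, and all 9 were among the 15980 genes that passed a filter on low counts. The pigs were juvenile and transgenic, with H2B-GFP, a green fluorescent protein joined to a histone, placed into exon 1 of 1 LGR5 allele by CRISPR/Cas9. Edited clonal fibroblast lines had been used for nuclear transfer, and the study used such founders and their progeny without stating which of them these pigs were. Epidermis and hair were separated from dermis, and live cells were sorted by flow cytometry into LGR5-high (GFP-hi) and LGR5-negative (GFP-neg) cells. RNA was sequenced from 2 pigs, 88R and 95R, with 1 library per population and pig, so that n was 2 pigs throughout. The sort follows the GFP protein, which is diluted as cells divide, and the LGR5-negative fraction holds all live cells of the suspension without detectable GFP, while cells of low GFP were not sequenced.

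Insulin-like growth factors signal through the receptor tyrosine kinase IGF1R and, in part, through its relative, the insulin receptor INSR. IGF2R, the cation-independent mannose 6-phosphate receptor, has no kinase and carries IGF2 to lysosomes for degradation. The IGF-binding proteins are secreted, hold the ligands in the extracellular space and release them when proteases cut them, so that they can both limit and prolong the signal. In skin, dermal papilla fibroblasts are a known source of IGF1 for the hair follicle epithelium.

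The libraries held between 30696803 and 32463362 counts on named genes. LGR5 itself had 4551 and 6224 counts in LGR5-high and 36 and 109 counts in LGR5-negative, in the order of pigs 88R and 95R that is kept below. The keratinocyte genes KRT5, TP63, CDH1, DSP and PERP were abundant in every library, with a summed level of 33307 to 35414 CPM (counts per 1000000, after TMM scaling of the library sizes) in LGR5-high and 38005 to 41307 in LGR5-negative. Markers of other cell types were mostly lower in LGR5-high. Those called lower by the test described next were 6 of 8 tested for fibroblasts, 5 of 7 for endothelium, 6 of 7 for immune cells and 5 of 8 for melanocytes. A fibroblast and an endothelial marker were higher, COL1A1 and TIE1. In contrast, 4 of 6 tested mural and smooth muscle markers were higher and 1 was lower, and of 3 tested Schwann cell markers 1 was higher and 1 lower, with CDH19 at 0 counts in every library. Since these are bulk libraries, fewer cells of a type and less RNA per cell cannot be told apart.

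Genes were called with edgeR's quasi-likelihood test where the Benjamini-Hochberg adjusted p stayed under 0.05, and by this measure LGR5-high cells had 5 of the 9 genes higher and 2 lower than LGR5-negative cells, with 2 not called. Among all tested genes, 22.7% were higher and 22.0% lower. Adding the pig to the model as a replicate block left the same 5 and 2 genes called, against a background of 28.5% higher and 27.2% lower. Both LGR5-high libraries lay above both LGR5-negative libraries for the 5 higher genes and below them for the 2 lower genes, where 39.2% and 37.4% of all tested genes did so. The median log2 fold change of the 9 genes was 0.51, next to 0.02 over all tested genes. Leaving out any single library, which leaves 1 library in a population, lowered these counts in at least 1 direction. The calls among all tested genes then fell in each direction as well. The scaling moved the counts of the 9 genes too, since 1 gene was lower with upper quartile scaling or with library size only. Of all tested genes 2929 and 2326 were lower in these settings, against 3508 with TMM scaling. The genes that rose were IGF1R, IGFBP2, IGFBP4, IGFBP5 and IGFBP7, and those that fell were IGF2R and IGFBP3. The plot of normalized counts by library shows each gene on its own scale, since CPM is not corrected for transcript length, and heights in different panels are not compared.

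**Figure D1:**
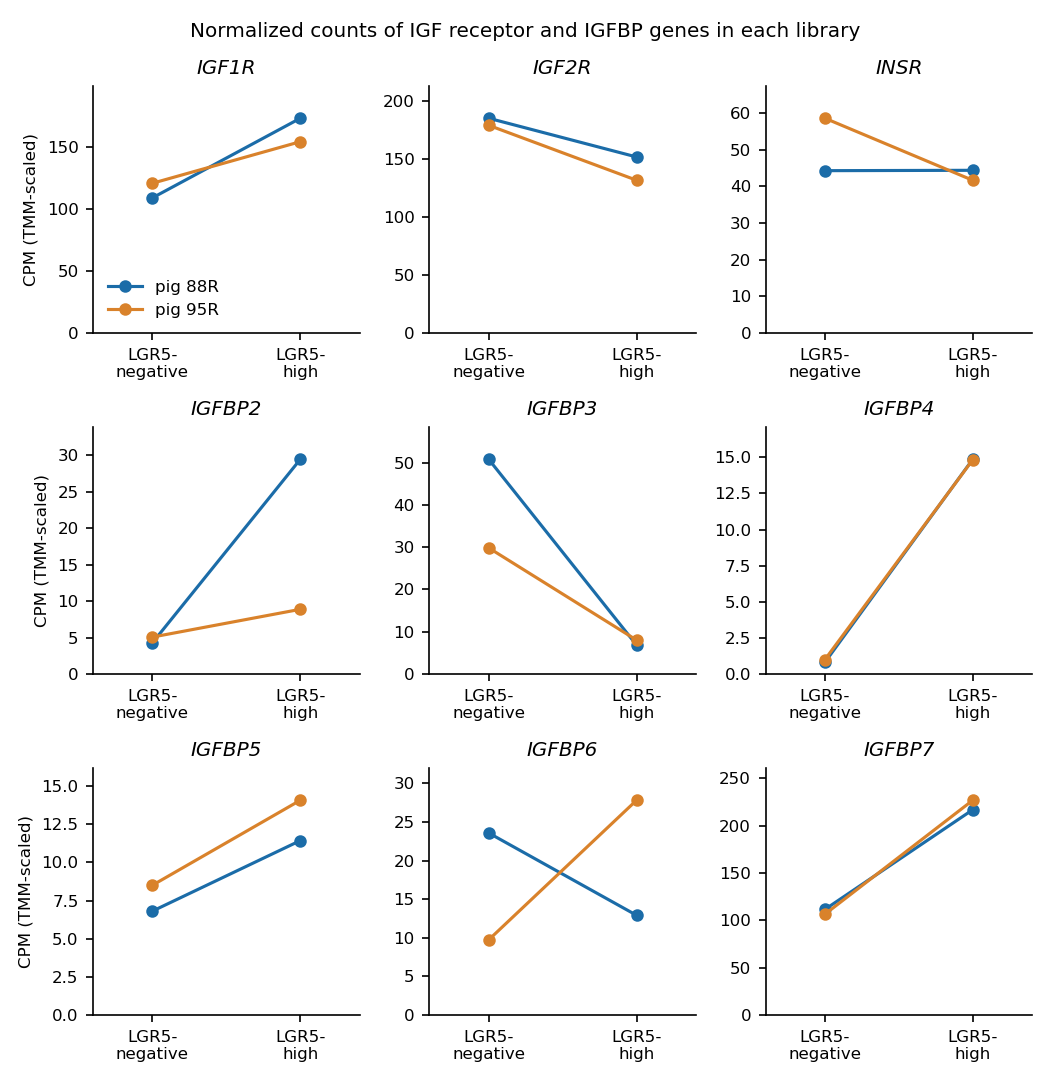
Scaled counts (CPM, linear axes from 0) of each gene in the LGR5-negative and LGR5-high library of pig 88R (blue) and pig 95R (orange), with lines joining the libraries of 1 pig. The lines of IGFBP4 and IGFBP7 nearly coincide between pigs, those of IGFBP6 cross, and IGFBP2 reached 29.4 CPM in LGR5-high of pig 88R and 8.87 CPM in that of pig 95R.

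Among the receptors, IGF1R was the only one higher in LGR5-high. IGF1R had 173 and 154 CPM in the LGR5-high libraries against 109 and 120.5 CPM in the LGR5-negative ones, from 3098 to 5939 counts per library. The means were 163 ± 13.3 CPM and 115 ± 8.3 CPM (SD, n = 2 pigs), and the populations did not overlap. The increase was 1.43-fold, a log2 fold change of 0.51 (standard error, SE, 0.0979, edgeR quasi-likelihood adjusted p = 0.00887), and 0.67 within pig 88R and 0.35 within pig 95R. IGF1R kept its call under each scaling between libraries and when any 1 library was left out. In the RefSeq annotation of Sscrofa11.1, the span of IGF1R overlaps that of PGPEP1L, which had means of 3.61 (LGR5-high) and 2.01 CPM (LGR5-negative), and reads shared by the pair cannot be told apart here.

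IGF2R had 152 and 132 CPM in the LGR5-high libraries against 185 and 179 CPM in the LGR5-negative ones, from 4355 to 5417 counts per library. The LGR5-high libraries were lower in both pigs without overlap. The fall was small, with a log2 fold change of -0.36 (SE 0.0953, edgeR quasi-likelihood adjusted p = 0.0263), and -0.29 in pig 88R and -0.44 in pig 95R. This call depended on the scaling and on single libraries: the log2 fold change was -0.27 with upper quartile scaling (edgeR adjusted p = 0.057) and -0.14 with library size only (edgeR adjusted p = 0.283). It was -0.34 without the LGR5-negative library of pig 88R (edgeR adjusted p = 0.0777), -0.39 without that of pig 95R (edgeR adjusted p = 0.0519) and -0.26 without the LGR5-high library of pig 95R (edgeR adjusted p = 0.143).

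INSR had 44.4 and 41.7 CPM in the LGR5-high libraries against 44.3 and 58.6 CPM in the LGR5-negative ones. The libraries of pig 88R were level, and only the LGR5-negative library of pig 95R stood above the rest. INSR was not called, with a log2 fold change of -0.26 (95% confidence interval -0.63 to 0.11, edgeR quasi-likelihood adjusted p = 0.208), and 0.0032 in pig 88R and -0.49 in pig 95R. Without the LGR5-negative library of pig 88R it was -0.45 and passed the test (edgeR adjusted p = 0.0324).

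The balance between receptors can be read without any scaling, as a ratio of counts within 1 library. There were 3.89 and 3.69 IGF1R counts per INSR count in LGR5-high, and 2.45 and 2.05 in LGR5-negative. This ratio was 1.59-fold higher in LGR5-high in pig 88R and 1.80-fold higher in pig 95R. The IGF1R counts per IGF2R count were 1.14 and 1.17 in LGR5-high and 0.587 and 0.672 in LGR5-negative, a difference of 1.94-fold and 1.74-fold. In both ratios all LGR5-high libraries were above all LGR5-negative libraries, and the size of each ratio also depends on transcript lengths.

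**Figure D2:**
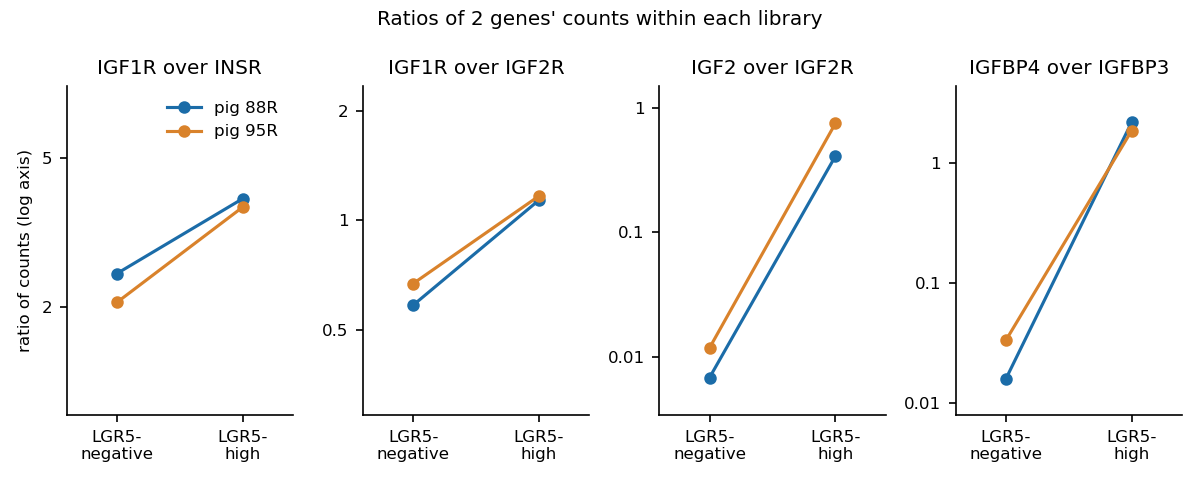
Ratio of the raw counts of 2 genes within each library (log axes), for pig 88R (blue) and pig 95R (orange). In LGR5-high, IGF1R was higher against INSR and IGF2R by less than 2-fold in either pig, IGF2 by 60.04-fold and 63.5-fold against IGF2R, and IGFBP4 by 137-fold and 55.6-fold against IGFBP3.

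The binding protein genes moved in different directions. IGFBP4, whose protein binds IGF1 and IGF2 and is cut by the protease pappalysin-1, had the largest fold change of the 9 genes. IGFBP4 had 14.9 and 14.8 CPM in the LGR5-high libraries against 0.807 and 0.993 CPM in the LGR5-negative ones, from 511, 490, 23 and 30 counts. These few counts in LGR5-negative were still above the limit of 3 counts, which corresponds to 0.0873 to 0.105 CPM. The increase was 16.4-fold, a log2 fold change of 4.04 (SE 0.202, edgeR quasi-likelihood adjusted p = 1.07e-04), and 4.10 within pig 88R and 3.82 within pig 95R.

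IGFBP7, a relative with weak affinity for IGFs that is deposited around blood vessels, had 217 and 227 CPM in the LGR5-high libraries against 111 and 106 CPM in the LGR5-negative ones. The libraries of 1 population differed little and the populations were far apart, with means of 222 ± 7.06 and 109 ± 3.55 CPM (SD, n = 2 pigs). The log2 fold change of IGFBP7 was 1.03 (SE 0.0782, edgeR quasi-likelihood adjusted p = 3.54e-04), with 0.96 and 1.09 in the pigs. IGFBP4 and IGFBP7 were called under every alternative that was run, and leaving out each library in turn kept IGFBP4 between 3.89 and 4.19 and IGFBP7 between 0.98 and 1.05. The endothelial markers had a summed level of 10.8 to 12.4 CPM in LGR5-high, against 23.5 to 24.7 CPM, the opposite direction to IGFBP7. Of 7 tested endothelial markers 5 were called lower, while TIE1 was higher, as IGFBP7 was. TIE1 had 4.39 and 4.81 CPM in the LGR5-high libraries against 1.97 and 2.65 CPM in the LGR5-negative ones. The mural and smooth muscle markers summed to 387 to 399.6 CPM in LGR5-high, against 555 to 652 CPM in the other population, nearly all of it NOTCH3, while CNN1, ACTA2, RGS5 and MYH11 were higher in LGR5-high and DES had at most 2 counts in any library. These names were taken after the values were seen, and their part in the change of IGFBP7 was not tested. POLR2B, whose span overlaps IGFBP7 in the RefSeq annotation, had a log2 fold change of 0.07 and was not called (edgeR adjusted p = 0.468).

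IGFBP5, which binds IGFs and extracellular matrix, rose modestly. It had 11.4 and 14.1 CPM in the LGR5-high libraries against 6.81 and 8.50 CPM in the LGR5-negative ones, a log2 fold change of 0.74 (SE 0.191, edgeR quasi-likelihood adjusted p = 0.0252). The pigs gave 0.74 and 0.72, the closest pair of values among the 9 genes. The call rested on single libraries all the same, with a log2 fold change of 0.58 without the LGR5-negative library of pig 88R (edgeR adjusted p = 0.0782) and of 0.58 without the LGR5-high library of pig 95R (edgeR adjusted p = 0.133).

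IGFBP2, which binds IGF2 with preference and carries an integrin-binding motif, was higher in LGR5-high but differed strongly between the pigs. It had 29.4 CPM in LGR5-high of pig 88R and 8.87 CPM in that of pig 95R, and 4.28 and 5.06 CPM in LGR5-negative. The LGR5-high libraries differed by 3.32-fold from each other, and the lower of them was still above both LGR5-negative libraries. The log2 fold change was 2.03 (SE 0.552, edgeR quasi-likelihood adjusted p = 0.0288), and 2.76 within pig 88R and 0.80 within pig 95R. Without the LGR5-high library of pig 88R it was 0.92 and was not called (edgeR adjusted p = 0.0542), and without that of pig 95R it was 2.66. It was also not called without the LGR5-negative library of pig 88R (log2 fold change 1.91, edgeR adjusted p = 0.0685) or with limma-voom (log2 fold change 1.80, limma-voom adjusted p = 0.0901), and with the replicate block it was 1.82 (edgeR adjusted p = 4.46e-05). IGFBP2 and IGFBP5 are next to each other in the RefSeq annotation, with no protein-coding gene between them.

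IGFBP3, the main carrier of IGFs in blood, was the only binding protein gene lower in LGR5-high. IGFBP3 had 6.84 and 8.02 CPM in the LGR5-high libraries against 50.8 and 29.8 CPM in the LGR5-negative ones, from 235, 265, 1448 and 902 counts. The LGR5-negative library of pig 88R was 1.70-fold above that of pig 95R, and both were far above the LGR5-high libraries. Its level was 5.43-fold lower in LGR5-high, a log2 fold change of -2.44 (SE 0.275, edgeR quasi-likelihood adjusted p = 0.00131), and -2.88 within pig 88R and -1.89 within pig 95R. With 1 library left out it lay between -2.78 and -2.01. Most fibroblast, endothelial and immune markers were lower as well. The immune markers summed to 6.57 to 12.3 CPM in LGR5-high, against 54.4 to 103 CPM, with CD3E at no more than 2 counts in any library, and the fibroblast markers summed to 234 to 454 and 229 to 353 CPM. Their part in the level of IGFBP3 was not tested.

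**Figure D3:**
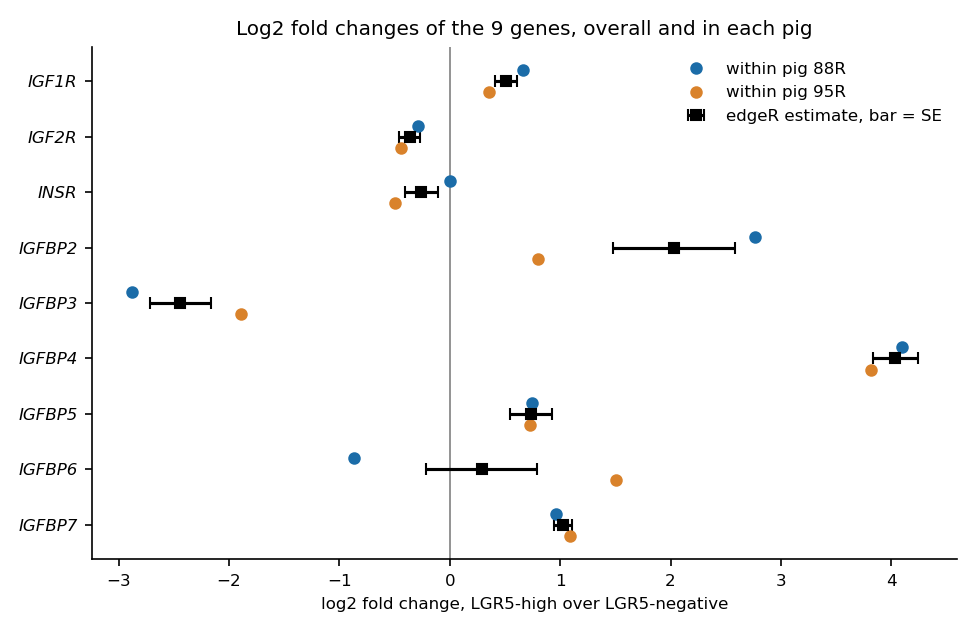
Log2 fold change of LGR5-high over LGR5-negative for each gene, as the edgeR estimate with its SE (black) and within pig 88R (blue) and pig 95R (orange). IGFBP4 lies at 4.04 and IGFBP3 at -2.44, and the pigs fall on opposite sides of 0 for IGFBP6.

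IGFBP6, which binds IGF2 with much higher affinity than IGF1, had opposite differences in the pigs. It had 12.9 CPM in the LGR5-high and 23.6 CPM in the LGR5-negative library of pig 88R, and for pig 95R 27.8 and 9.73 CPM. The log2 fold changes were -0.87 and 1.51, whereas 14.1% of all tested genes had opposite signs in the pigs. The populations overlapped, and IGFBP6 was not called, with a log2 fold change of 0.29 (95% confidence interval -0.95 to 1.53, edgeR quasi-likelihood adjusted p = 0.667). The summed fibroblast markers had the same order of libraries within each pig, at 234 (LGR5-high) and 353 CPM (LGR5-negative) in pig 88R, and 454 and 229 CPM in pig 95R. Most of that sum was COL1A1 and DCN. Among these 8 markers, which were inspected after the values of IGFBP6 were seen, COL1A1 had a log2 fold change of 0.60 in pig 88R and 3.15 in pig 95R and PI16 one of 0.30 and 2.55, while the other 6 were lower in LGR5-high in both pigs. Their part in the level of IGFBP6 was not tested.

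The 6 binding protein genes together had 10047 and 9923 raw counts in LGR5-high and 5634 and 4851 in LGR5-negative, without scaling between libraries. IGFBP7 held 74.2% and 75.5% of these counts in LGR5-high, and 56.4% and 66.3% in LGR5-negative. The share of IGFBP3 was 25.7% and 18.6% in LGR5-negative and 2.34% and 2.67% in LGR5-high, while that of IGFBP4 was 0.408% and 0.618% in LGR5-negative and 5.09% and 4.94% in LGR5-high. These are shares of counts and not of molecules, since transcript lengths were not used. As a ratio within a library, IGFBP4 counts per IGFBP3 count were 2.17 and 1.85 in LGR5-high and 0.0159 and 0.0333 in LGR5-negative.

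The ligand genes of the same receptors showed a contrast of their own. IGF2, the growth factor that IGF2R takes up for degradation, had 62.2 and 98.95 CPM in the LGR5-high libraries against 1.26 and 2.12 CPM in the LGR5-negative ones, from 2137, 3269, 36 and 64 counts. IGF2 was 47.3-fold higher, a log2 fold change of 5.56 (SE 0.341, edgeR quasi-likelihood adjusted p = 1.85e-04), and 5.55 within pig 88R and 5.50 within pig 95R. IGF2 counts per IGF2R count were 0.00682 in LGR5-negative and 0.409 in LGR5-high of pig 88R, and 0.0118 and 0.751 in pig 95R.

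IGF1 was scarce in both populations, with 6 and 4 counts in LGR5-high and 20 and 33 counts in LGR5-negative. It was lower in LGR5-high, with a log2 fold change of -2.57 (SE 0.497, edgeR quasi-likelihood adjusted p = 0.0092). Most fibroblast and immune markers were lower as well, while the fibroblast marker COL1A1 was higher, and their part was not tested. The span of IGF1 overlaps uncharacterized loci in the RefSeq annotation. The call was lost without the LGR5-high library of pig 88R (log2 fold change -2.86, edgeR adjusted p = 0.0526) or of pig 95R (-2.33, edgeR adjusted p = 0.0782). INS, the insulin gene, had 0 counts in all libraries, which allows a level of up to 0.0873 to 0.105 CPM, depending on the library.

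Of the other binding proteins, IGFBP1 had 0 counts in every library, with the same limit. In the RefSeq annotation IGFBP1 is the neighbour of IGFBP3. IGFBPL1 had at most 1 count. IGFALS, which joins IGFBP3 or IGFBP5 and an IGF in the circulating ternary complex, had 122 to 142 counts per library and a log2 fold change of -0.31 (edgeR quasi-likelihood adjusted p = 0.285). KAZALD1, an IGFBP-related protein, had 80 to 102 counts and a log2 fold change of 0.09 (edgeR adjusted p = 0.783). Neither was called.

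Proteases of the binding proteins and the inhibitors of these proteases were tested for 4 of 7 listed genes, and 2 were higher and 1 was lower. PAPPA, which encodes pappalysin-1, the protease that cuts IGFBP4, had 51.5 and 39.0 CPM in the LGR5-high libraries against 2.21 and 4.24 CPM in the LGR5-negative ones. PAPPA was 14.0-fold higher (log2 fold change 3.81, SE 0.317, edgeR quasi-likelihood adjusted p = 4.78e-04), in the same direction as IGFBP4. STC1, which encodes an inhibitor of pappalysin, had 101 and 78 counts in LGR5-high and 5 and 10 counts in LGR5-negative and was 10.3-fold higher (edgeR adjusted p = 0.00178). HTRA1, a secreted serine protease that can cut IGFBP5, had 165 and 227 CPM in the LGR5-high libraries against 276 and 295 CPM in the LGR5-negative ones. Its log2 fold change was -0.54 (edgeR adjusted p = 0.0356), and -0.34 without the LGR5-high library of pig 88R (edgeR adjusted p = 0.0824) and -0.50 without the LGR5-negative library of pig 95R (edgeR adjusted p = 0.0758), where it was not called. It was also not called with upper quartile scaling (-0.45, edgeR adjusted p = 0.0696) or with library size only (-0.32, edgeR adjusted p = 0.136).

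Of 8 other genes whose proteins hold an IGFBP-type domain, 4 were tested, with 2 higher and 1 lower. They belong to the CCN family of matrix-associated proteins. CCN2, listed as CTGF, had 850 and 1147 CPM in the LGR5-high libraries against 35.4 and 55.4 CPM in the LGR5-negative ones, a log2 fold change of 4.46 (edgeR quasi-likelihood adjusted p = 1.85e-04). CCN4, listed as WISP1, had a log2 fold change of 3.36 (edgeR adjusted p = 4.05e-04). CCN1, listed as CYR61, went the other way with a log2 fold change of -1.47 (edgeR adjusted p = 4.02e-04), from 178 and 213 CPM in the LGR5-high libraries against 569 and 514 CPM in the LGR5-negative ones.

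Of the 33 tested genes that act inside the cell, 14 were lower and 3 were higher in LGR5-high, beside 22.0% lower and 22.7% higher among all tested genes. This split depended on the scaling, with 8 lower and 4 higher under upper quartile scaling and 6 lower and 7 higher with library size only. The calls over all 15980 tested genes moved as well. They were 2929 lower and 4292 higher under upper quartile scaling, and 2326 lower and 5473 higher with library size only. Of the 8 tested receptor adaptors, a list that also holds regulators of the adaptor signal such as the RAS exchange factors SOS1 and SOS2, 6 were lower and 1 was higher, and 3 and 1 with library size only. IRS1, the docking protein of IGF1R and INSR, had 45.3 and 47.7 CPM in the LGR5-high libraries against 104 and 119.5 CPM in the LGR5-negative ones, a log2 fold change of -1.27 (SE 0.0994, edgeR quasi-likelihood adjusted p = 3.87e-04). SHC1, an adaptor toward the RAS pathway, had a log2 fold change of -1.09 (edgeR adjusted p = 2.87e-04). The exception was GRB14, an adaptor that blocks the insulin receptor kinase, with 28.4 and 29.4 CPM in the LGR5-high libraries against 2.74 and 1.62 CPM in the LGR5-negative ones. GRB14 was 13.3-fold higher (log2 fold change 3.73, SE 0.249, edgeR adjusted p = 2.33e-04).

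Of the 12 tested PI3K and AKT genes, 2 were higher and 5 were lower, and 3 and 2 with library size only. PIK3IP1, an inhibitor of PI3K, had 92.3 and 71.1 CPM in the LGR5-high libraries against 22.7 and 29.3 CPM in the LGR5-negative ones, a log2 fold change of 1.65 (edgeR quasi-likelihood adjusted p = 0.00116). PDPK1, the kinase upstream of AKT, was lower with a log2 fold change of -0.63 (edgeR adjusted p = 0.00597). Of the 9 tested genes of the TOR complex and its control, 3 were lower and 0 were higher in edgeR, where 5 and 0 had an unadjusted p under 0.05, and DESeq2 also called 3 and 0, while library size only gave 1 lower and 1 higher. DEPTOR, a subunit that inhibits the TOR kinase, had 32.8 and 31.9 CPM in the LGR5-high libraries against 71.3 and 74.9 CPM in the LGR5-negative ones, a log2 fold change of -1.17 (edgeR adjusted p = 3.28e-04). Of the 4 FOXO transcription factors, which AKT keeps out of the nucleus, edgeR called 0, with 1 lower at an unadjusted p under 0.05, and DESeq2 called 0, while the replicate block gave 1 higher and 1 lower and library size only 2 higher.

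Over these 8 lists of pathway genes, 45 of 57 genes were tested, with 8 higher and 17 lower, which is 17.8% and 37.8% beside 22.7% and 22.0% of all tested genes. Their median log2 fold change was -0.28. The split between directions moved with the scaling between libraries, with 12 higher and 8 lower with library size only and 9 and 10 with upper quartile scaling. These settings moved the median of all tested genes to 0.24 and 0.11. Of all 15980 tested genes, 5473 were higher and 2326 lower with library size only, and 4292 and 2929 with upper quartile scaling. Leaving out the LGR5-high library of either pig reduced the number of lower genes, in these lists and among all tested genes.

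**Figure D4:**
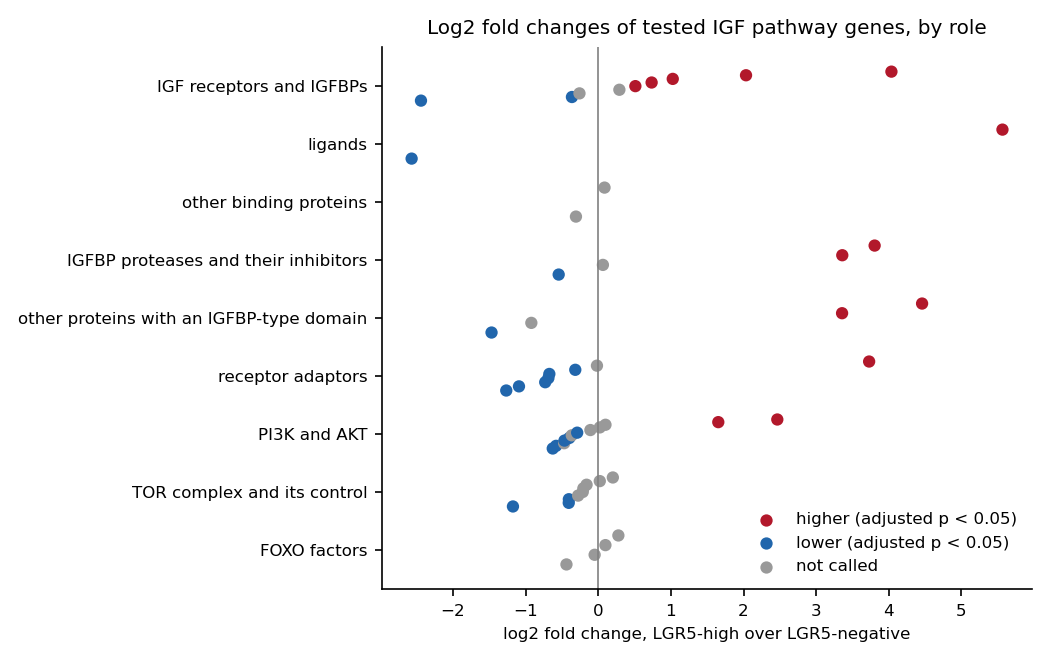
Log2 fold change of LGR5-high over LGR5-negative for each tested gene, in rows by role, in red for genes higher, in blue for genes called lower and in grey for genes not called. The ligand at 5.56 is IGF2 and the one at -2.57 is IGF1, and the called adaptors lie below 0 apart from GRB14 at 3.73.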

How the data were processed

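RNA of sorted LGR5-high and LGR5-negative epidermal cells from 2 pigs was sequenced as paired-end reads after poly(A) selection. The values are counts of reads for each gene symbol, deposited by the authors as whole numbers and not normalized, for 4 libraries. The submitters' processing notes name Trimmomatic 0.36, STAR 2.5.2b, featureCounts and Subread 1.5.2; the genome build and strand setting are not given in the sources used here. Reads shared between overlapping genes can therefore not be assigned with certainty. All 29837 symbols matched the RefSeq table of Sscrofa11.1, used for names and neighbours only. An entry without a name, with 0.36% to 0.626% of counts, was left out.

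Low genes were removed with filterByExpr of edgeR 4.0.16 under R 4.3.3 (minimum count 10, minimum total 15), libraries were scaled by TMM, and a 2-sided quasi-likelihood test with population as the only term was adjusted by Benjamini-Hochberg over 15980 genes. A call needed an adjusted p-value below 0.05. Standard errors are the log2 fold change divided by the root of the F statistic. Values are log2 fold changes of LGR5-high over LGR5-negative, with a prior count of 0.125, or of 2 within each pig. The study's methods name Student's t-test with the same adjustment, whereas its results name a Bonferroni adjustment. The t-test was run as an alternative with the Benjamini-Hochberg adjustment. Same-numbered libraries come from 1 pig, and their deviations from the mean of each population correlated at 0.422 over the tested genes. The fits were tested on simulated data. The limit of 3 counts covers counting error only. Plots were drawn with matplotlib 3.10.9.

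The 9 genes, the gene lists and the markers were chosen with earlier results of these data known. Named pathway genes are the ligands, the other binding proteins and, from each further list, at most 3 called genes at either end; PIK3R3 and KRT14 were not analysed here, and 1 called gene is counted but not reported here by name. Alternatives were other scalings, other filters, the replicate block, DESeq2 1.42.0, limma-voom (limma 3.58.1), the t-test on log2(CPM + 1), a prior count of 2 and leaving out each library.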

Additional observations from a re-analysis of the deposited data

How the results depend on the processing

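Of the 9 genes, 5 were higher and 2 lower with the DESeq2 size factors, both other filters, the replicate block and DESeq2, and limma-voom gave 4 and 2. Upper quartile scaling and library size only each left 1 lower gene, IGFBP3. By Student's t-test, on log2(CPM + 1), 2 genes were higher, IGFBP4 and IGFBP7, and 0 lower, with 3 and 1 at an unadjusted p under 0.05. For the pathway genes this test gave 0 higher and 2 lower, with 7 and 11 at an unadjusted p under 0.05. The t-test takes the spread of each gene from that gene alone, with 2 libraries in each population. The cause of the smaller counts was not tested. Over all 15980 tested genes the t-test called 544 higher and 502 lower, where edgeR called 3632 and 3508. With each library left out in turn there were 3 to 5 higher and 1 to 2 lower of the 9 genes, and 8 to 14 lower pathway genes. Lower pathway genes numbered 10 with upper quartile scaling and 8 with library size only, settings that by construction move all log2 fold changes together. The replicate block gave 9 higher and 22 lower pathway genes and changed the call of none of the 9 genes. IGFBP6 turned to -0.36 without the LGR5-high library of pig 95R and to -0.22 without its LGR5-negative library, ranged up to 1.06 with 1 library left out, and was called under no setting. The other 8 genes kept their sign under every alternative. Counts were too few for firm values of IGF1, INS, IGFBP1 and IGFBPL1. The ratios and shares of counts between genes also depend on transcript lengths, which were not used.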
